A study of Mus musculus with 36 samples.

Results

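Whole brains of newborn C10 congenic mice were compared with whole brains of newborn B6 mice at postnatal day 0.5. The comparison rests on 12 of the 36 samples of the series, 6 brains titled C10 congenic and 6 titled B6, each hybridised alone to an Illumina Sentrix Mouse-6 array. The samples were taken by their titles, and no measured value entered that choice. The series concerns the ubiquitin ligase gene Rnf41 in anxiety-like behaviour, depression and beta carboline seizures, per its title. It also holds 6 newborn A/J brains on the same arrays, which entered the fit below to share the estimate of the spread, and adult hippocampus on another platform, which was not used here. In the design text the congenic line is called A.B6chr10, a name usually given to mice of A/J background with chromosome 10 material from B6. How much of the chromosome is of B6 origin, how many backcross generations lie behind the line, and the sex and litter of the mice were not stated by the labels or the design text. No treatment is recorded for any group.

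A congenic line is made by crossing a chromosome segment of a donor strain into a recipient strain and backcrossing to the recipient. Against its donor, such a line would by design be alike within the segment and to carry the recipient's alleles elsewhere. Each gene is read here through a short oligonucleotide on beads, so a difference between strains can lie in the amount of transcript, in the transcript form, or in a sequence variant under the oligonucleotide. Oligonucleotide sequences were not used here, and for no gene below was a variant under the probe tested.

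Signals are the deposited bead intensities, which reach below 0, with a lowest value of -59 on every array. A probe is called detected in a brain where 1 minus its deposited detection score, read as a detection p, lay under 0.01, and 14415 to 15737 of 46116 probes were detected per array. Differences are given on the scale of log2(signal + 75) after quantile normalization, as C10 congenic minus B6, and the added 75 makes the differences of dim probes smaller. Probe identifiers that carry a number were read as NCBI Gene IDs, which named 9832 probes of 8127 genes, and a gene is represented by its brightest probe that passed the detection filter. This reading is an inference from the identifiers.

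C10 brain 3 and B6 brain 4 stood apart from the other brains of their lines. Their median correlations with the other 5 brains were 0.954 and 0.960, against 0.970 to 0.989 for the other 10 brains of these lines. In C10 brain 3, 33 of the tested probes had a signal under -40 although the median of the other 5 C10 brains was over 500, and no other array held such a probe. Among these 33 probes were those of 14 genes, such as Rps13 (-52.3 against a median of 18038 in the other 5 brains), Psma4 (-54.7 against 4738), Naca (-57.1 against 4824), Flrt3 (-57.7 against 2429) and Hpca (-56.8 against 1745). None of the 14 genes was called different, and their fitted differences of -0.74 to -1.51 include that brain's value. Leaving out C10 brain 3 and B6 brain 4 together, an alternative chosen after the data were seen, gave 323 called genes in place of 432, of which 290 were shared with the same direction.

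Markers of neurons, read from their summed signal, overlapped between the lines. The sum over 15 neuronal genes with a probe was 76424, 85138 and 88158 in C10 brains (lowest, median and highest) and 76637, 87884 and 91905 in B6 brains. Gap43, Dcx, Mapt and Stmn3 were bright in all 12 brains, while the probes of Snap25 and Nefl were undetected in all 12, although both genes are expressed in brain. None of 12 tested neuronal markers, 4 of radial glia and progenitors, 3 of choroid plexus and 1 each of astrocytes, oligodendrocytes and vessels was called, although the astrocyte gene Aqp4 was called without B6 brain 1. Probes of Pax6, Gfap, S100b, Slc1a2, Olig2, Mog, Mobp, Cd68 and Itgam were undetected in all 12 brains, as were the 3 pituitary genes and the 1 skeletal muscle gene with a probe. Of 5 sex-linked genes, the Y-linked Eif2s3y and Kdm5d were detected in all 12 brains, and Xist, Ddx3y and Uty were undetected in all 12.

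The lines differed in many genes on nearly all chromosomes. Of 15883 tested probes, 1922 were called at a limma adjusted p under 0.05, which is 12.1% of all tested, with 952 higher (5.99%) and 970 lower (6.11%) in the C10 congenic line. Of these, 1438 carried no gene name and are not described further. Among 4147 tested genes 432 were called, a background of 10.4%, with 167 higher in the C10 line (4.03%) and 265 lower (6.39%). The median difference over all tested genes was -0.01, and the median size among called genes was 0.55. Sizes of 1 or more were found in 84 called genes, 22 higher and 62 lower, and 182 called genes differed by less than 0.5. The 6 C10 and 6 B6 signals did not overlap in 237 of the called genes, against 252 of all tested genes (6.08%). Of the 432 called genes, 26 were undetected in all 6 C10 brains and 10 in all 6 B6 brains. The 26 passed the detection filter without any C10 brain, and those that passed through B6 brains alone had to differ. The counts by direction, size and overlap include them. P-values weigh a difference against the spread between brains of the same line, estimated over all 18 arrays, the A/J brains included. The brains are separate animals per the design text.

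**Figure D1:**
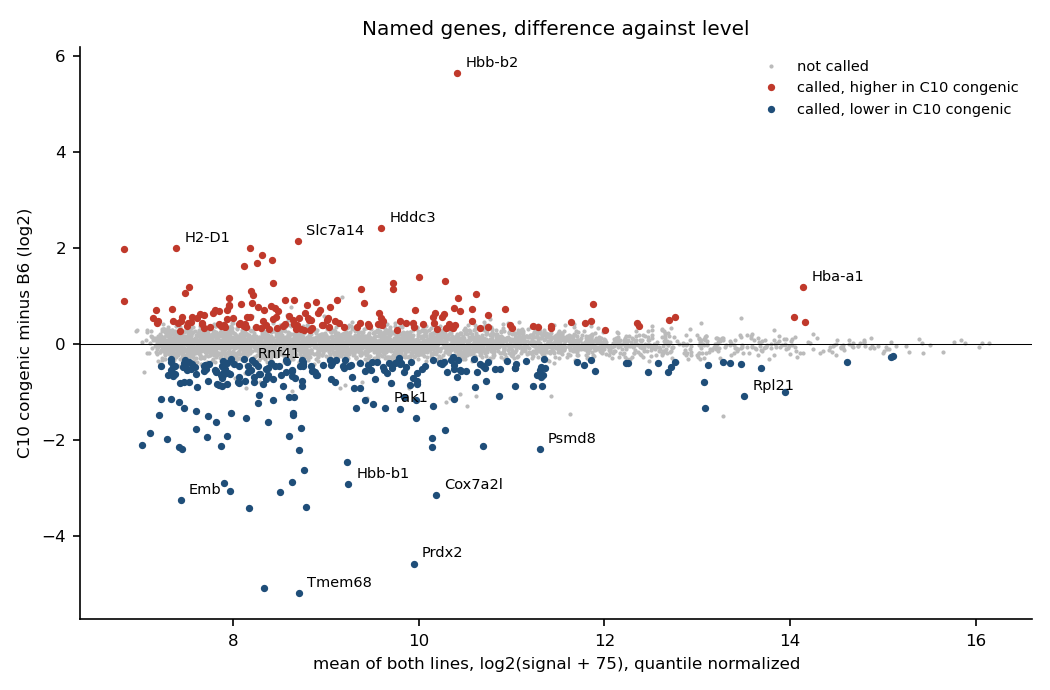
Each point is a named gene, with the mean level of both lines on the x axis, as quantile-normalized log2(signal + 75), and the C10 congenic minus B6 difference in log2 on the y axis. Red points are the 167 genes called higher and blue points the 265 called lower in the C10 congenic line, grey points were not called, and the largest differences are Hbb-b2 at 5.64 and Tmem68 at -5.19, the latter with C10 signals below detection.

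Some genes gave signal in B6 brain and none above background in the congenic line. Tmem68, which encodes a membrane protein with an acyltransferase domain, had signals of -23.9, -6.3 and 25.4 in C10 brains (lowest, median and highest) and of 2247, 2465 and 2651 in B6 brains. It was undetected in all 6 C10 brains and detected in all 6 B6 brains. The difference was at least 15.4-fold, where "at least" means that the B6 mean was set, in each C10 array, against the dimmest signal that still counted as detected, or the probe's signal where that was higher. Zcchc3, for a nucleic-acid-binding protein with a zinc knuckle, was at least 5.8-fold lower (C10 median 13.4, B6 median 879), and Asap2, for a GTPase-activating protein of Arf, at least 8.7-fold (63.6 and 1504).

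The set of genes undetected in all 6 C10 brains and detected in all 6 B6 brains held 25 members. Besides the genes above, Rpl29 of the large ribosomal subunit was at least 6.5-fold lower, with C10 signals of 36.1, 43.2 and 75.6 and B6 signals of 782.9, 989 and 1221. Atrnl1, an attractin-like gene, was at least 4.4-fold lower, Rere, for an atrophin-family transcriptional regulator, at least 4.0-fold, and Emb, for the immunoglobulin-superfamily protein embigin, at least 3.2-fold. The mitotic kinase gene Plk1 (at least 3.0-fold), the ubiquitin ligase gene Traf6 (2.9), the RNA exosome gene Exosc10 (2.5), the replication fork gene Tipin (2.3) and the kinase gene Map4k5 (2.2) belonged to the same set. Myo7a, Zfp446, Eml6, Col1a2, Drc3, Tor1aip2, H2aw, Lefty2, Ccl21c, Uap1l1, Abca5 and Adamts4 also belonged to it, with bounds from 1.3 to 2.2-fold. No C10 brain counted towards the filter of 6 detected arrays for the genes of this set. Those named here passed it through the B6 brains alone, except Traf6 and Zfp446, which were also detected in 1 of 6 A/J brains. All of them therefore had to differ, and their values are a description, with no test. They are counted among the 265 genes called lower. Leaving out any B6 brain gave no value for those named here other than Traf6 and Zfp446.

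Other genes were detected in at least some C10 brains and were many times dimmer there. Prdx2, which encodes a thiol peroxidase that reduces hydrogen peroxide, had signals of 64.2, 130.3 and 181.1 in C10 brains and 4554, 4769 and 4841 in B6 brains. The C10 signals were all low and the B6 signals all high and close together (log2 difference -4.58, SE 0.12, limma adjusted p = 7.47e-19). Cox7a2l, for a factor that assembles respiratory supercomplexes, had 228.7, 327.8 and 406.4 in C10 brains against 2634, 3439 and 4387 in B6 brains (log2 difference -3.14, SE 0.17, limma adjusted p = 7.62e-13). Its lowest B6 signal lay far above its highest C10 signal. Arl5a, for an Arf-like GTPase of the Golgi (-2.88), B3galt6, for a galactosyltransferase of the proteoglycan linker (-2.62), Zfp871, a zinc finger gene (-2.21), Psmd8, for a subunit of the proteasome lid (-2.19), and Srp9, for a protein of the signal recognition particle (-2.14), were lower without overlap. Psmd8 was bright in both lines, at 727.7, 1129 and 1413 in C10 brains and 4719, 5323 and 6602 in B6 brains.

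The genes with the largest increases in the congenic line were led by Hbb-b2, an adult beta-globin gene. It had signals of 7436, 10399 and 10880 in C10 brains and 100.9, 111.2 and 152.2 in B6 brains, with no overlap (log2 difference 5.64, SE 0.12, limma adjusted p = 1.2e-20). Hddc3, for a hydrolase of guanosine tetraphosphate and NADPH, had 1427, 1764 and 2011 in C10 brains against 185, 272 and 339.6 in B6 brains (2.40, SE 0.12, limma adjusted p = 1.99e-13). It was detected in all 12 brains, so this difference has a measured level on each side. Slc7a14, for an amino acid transporter family member (2.14), Lrp6, for a co-receptor of Wnt (1.99), Dbpht2 (1.84), the zinc finger gene Zfp775 (1.75), Cuedc1, for a protein with a ubiquitin-binding domain (1.68), and the ribonuclease gene Rnase4 (1.62) were also higher. These 6 were detected in all 6 C10 brains but in only 4, 1, 2, 4, 2 and 2 of 6 B6 brains. Their 6 and 6 signals did not overlap. Rpa3, for a subunit of the single-strand DNA-binding complex RPA, was higher by 1.40, with C10 signals of 1428, 1559 and 1850 against 398.5, 580.3 and 723.4.

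The reverse pattern, undetected in all 6 B6 brains and detected in all 6 C10 brains, was found in 4 genes. The class I histocompatibility gene H2-D1 had 203.1, 265.6 and 313.3 in C10 brains and -3.7, 7.9 and 21.7 in B6 brains, a difference of at least 2.0-fold (limma adjusted p = 1.46e-12). Zfp983 was higher by at least 1.5-fold, Zf12 by at least 1.3-fold and Tgfb3, for a transforming growth factor beta ligand, by at least 1.1-fold. The Tgfb3 call (limma adjusted p = 0.0435) lost the threshold in 12 of 18 fits without 1 brain, those of all 3 lines counted. Myh7, for a slow myosin heavy chain (1.27), Zbtb46, for a transcription factor of dendritic cells (1.27), Lst1, a leukocyte transcript of the histocompatibility region (1.15), Ttc14 (1.13), Zfp24 (1.10) and the X-linked gene Xlr3a (1.18) were also among the 20 largest increases. Xlr3a is a member of a multicopy family, its lines overlapped, and B6 brain 4 (156.4) lay far above the other B6 brains, whose median with it was 37.5.

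The signals of A/J brains are set beside those of both lines for the 16 genes in the plot of signals by brain. Beside C10 medians of 130.3 for Prdx2, 327.8 for Cox7a2l, 1764 for Hddc3 and 825.7 for Slc7a14, A/J medians were 146.3, 338.5, 1588 and 756.2. The C10 minus A/J differences were -0.19, -0.00, 0.14 and 0.05, none of them called (limma adjusted p = 0.48, 1, 0.63 and 0.92). The same C10 brains enter both comparisons, so these values are set side by side only.

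**Figure D2:**
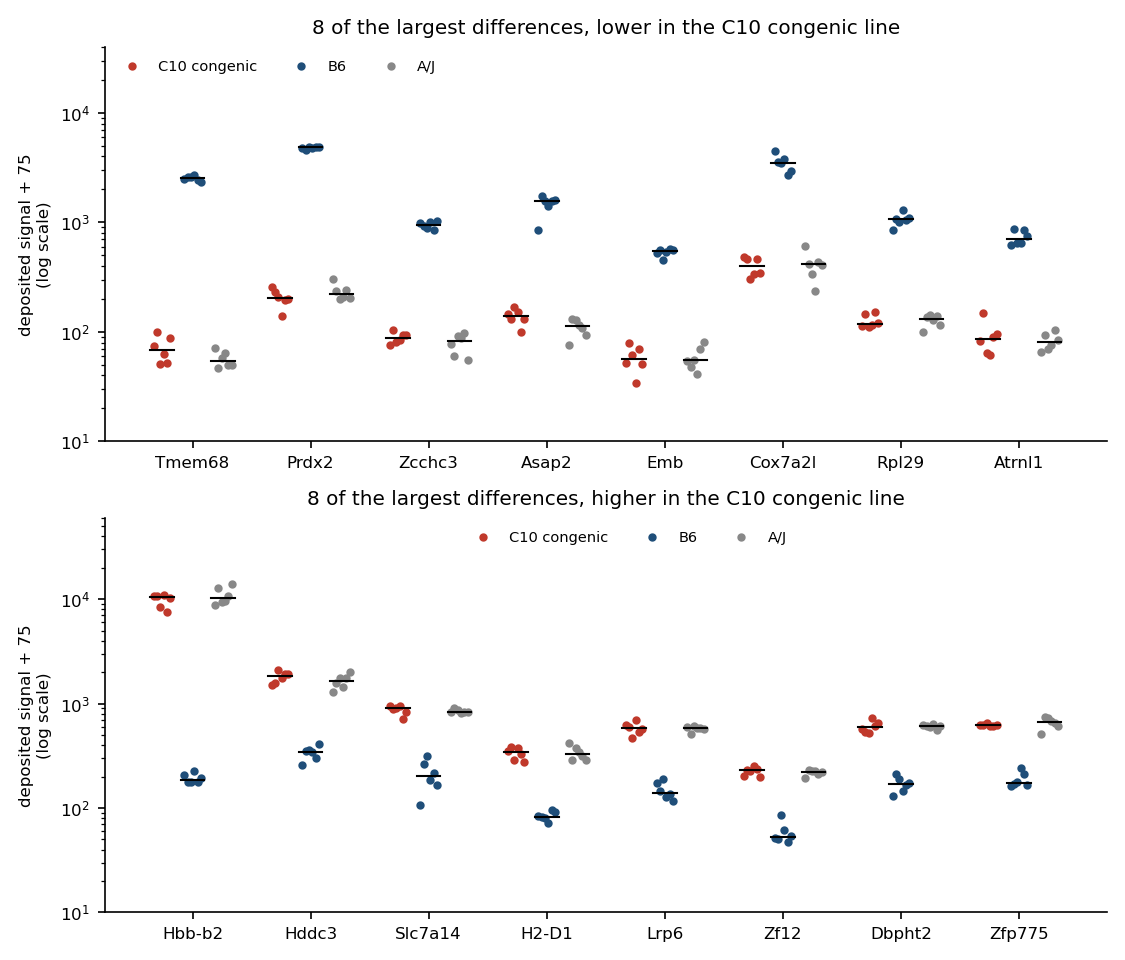
Each point is the deposited signal plus 75 of 1 brain on a log scale, for 8 of the genes with the largest decreases (upper panel) and 8 with the largest increases (lower panel) in the C10 congenic line, with 6 brains per line and a bar at the median. In these 16 genes no C10 brain reaches the B6 range, and the A/J brains are shown for reference.

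The windows around the starts of 4 of these genes are shown because these genes had a measured level in both lines and stand for both directions of change. They are the RefSeq sequences of GRCm38.p6, which is a B6 genome, from 250 bases before to 50 bases after the annotated start, 5′ to 3′ on the gene's strand. The windows lie at chr8:84969372-84969671 (plus strand, Prdx2), chr17:83514284-83514583 (minus strand, Cox7a2l), chr7:80342887-80343186 (plus strand, Hddc3) and chr11:32283422-32283721 (plus strand, Hba-a1). Capitals mark 4 motifs searched on both strands, which are TATAAA (the TATA box), CCAAT (the CAAT box), GGGCGG (the GC box) and CACCC (bound by Klf factors).
Prdx2: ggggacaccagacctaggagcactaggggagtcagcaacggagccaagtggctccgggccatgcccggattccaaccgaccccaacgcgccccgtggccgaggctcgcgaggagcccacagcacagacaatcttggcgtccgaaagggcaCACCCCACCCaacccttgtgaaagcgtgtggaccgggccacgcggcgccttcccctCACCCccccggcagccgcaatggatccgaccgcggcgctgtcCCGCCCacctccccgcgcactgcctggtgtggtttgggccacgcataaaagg
Cox7a2l: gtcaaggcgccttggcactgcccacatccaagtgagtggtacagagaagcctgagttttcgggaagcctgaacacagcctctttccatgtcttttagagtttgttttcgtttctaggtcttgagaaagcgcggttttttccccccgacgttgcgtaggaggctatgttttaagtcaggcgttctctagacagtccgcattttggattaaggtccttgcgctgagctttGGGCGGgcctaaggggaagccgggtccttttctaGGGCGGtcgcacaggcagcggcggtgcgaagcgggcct
Hddc3: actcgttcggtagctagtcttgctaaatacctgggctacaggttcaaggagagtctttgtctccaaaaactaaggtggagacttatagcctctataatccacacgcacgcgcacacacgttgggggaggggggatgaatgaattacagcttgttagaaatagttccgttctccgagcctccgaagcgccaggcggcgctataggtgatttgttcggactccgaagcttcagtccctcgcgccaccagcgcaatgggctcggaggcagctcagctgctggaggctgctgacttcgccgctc
Hba-a1: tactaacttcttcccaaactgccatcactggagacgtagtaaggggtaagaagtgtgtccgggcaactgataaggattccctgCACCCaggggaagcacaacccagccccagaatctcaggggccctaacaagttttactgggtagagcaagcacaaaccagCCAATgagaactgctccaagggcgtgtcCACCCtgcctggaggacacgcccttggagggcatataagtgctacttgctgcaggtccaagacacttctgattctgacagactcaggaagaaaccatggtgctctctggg
Prdx2 held CACCC at -100, -95 and -44 from the start and GGGCGG on the other strand at -2. Cox7a2l held GGGCGG at -22 and 13, Hba-a1 held CCAAT at -88 and CACCC at -167 and -60, and Hddc3 held none of the 4 motifs. Of 32851 promoter windows of this length, 57.5% held CACCC, 35.7% GGGCGG, 37.4% CCAAT and 13.6% TATAAA, so these matches are common and describe the sequence only. The share of G and C was 68.7% for Prdx2, 55% for Cox7a2l and Hddc3 and 53.3% for Hba-a1, against a median of 52.7% over all windows. The A/J sequence of these windows was not used here, and no difference between the strains was looked for in them.

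Haemoglobin genes moved in opposite directions. Hbb-b2 and the alpha-globin gene Hba-a1 were higher in the C10 line, and Hbb-b1 was lower, so that all 3 measured members of the red blood cell list of 20 genes were called. Hbb-b1 had signals of 99.9, 143.2 and 209.2 in C10 brains and 1010, 1616 and 2126 in B6 brains (log2 difference -2.92, limma adjusted p = 3.77e-13). Hba-a1 was bright throughout, at 16532, 28815 and 39829 in C10 brains and 8241, 11403 and 20971 in B6 brains, with some overlap (1.19, SE 0.21, limma adjusted p = 0.000262). As background, B6 carries the single and A/J the diffuse haplotype of the beta-globin cluster on chromosome 7, whose copies are near-identical. The assignment of signal among beta-globin copies and between the alpha-globin copies is therefore uncertain, and residual blood in the brains was not tested.

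Immune and histocompatibility genes held the largest share of calls among lists of 20 or more measured genes, 9 of 25 (36%, 2 higher and 7 lower), beside 10.4% of all tested genes. Their median difference was -0.05, close to that of all genes. Without C10 brain 3 and B6 brain 4 together, 6 of 23 were called, 3 higher and 3 lower. The 9 calls include Ccl21c, which passed the detection filter through the B6 brains alone. H2-D1 (above) and H2-Q5 (0.43) were higher, while H2-DMa (-0.52), H2-Q2 (-0.39), H2-T10 (-0.38), the chemokine genes Ccl27a (-2.46), Ccl21c (above) and Cxcl14 (-0.53) and the transcription factor gene Stat3 (-0.44) were lower. As background, B6 and A/J carry different haplotypes of the histocompatibility complex, and the H2 genes and the chemokine copies on chromosome 4 are multicopy, so that the reading of a probe as a given gene is uncertain there. Ccl27a signals were -54.3, 331.4 and 447.5 in C10 brains and 1206, 1316 and 1558 in B6 brains, and the lowest was C10 brain 3. Without that brain the Ccl27a difference was -1.75 (limma adjusted p = 5.71e-10). A second tested Stat3 probe was also called lower (-0.49, limma adjusted p = 0.00635).

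Among enzymes of redox balance, 3 of 14 measured were called (21.4%, beside 10.4% of all genes), 1 higher and 2 lower. Besides Prdx2, the glutaredoxin gene Glrx was lower, with signals of 464.8, 596.9 and 747.5 in C10 brains and 1583, 2293 and 2757 in B6 brains (log2 difference -1.79, SE 0.13, limma adjusted p = 2.39e-10). Its lines did not overlap. The mitochondrial glutaredoxin gene Glrx2 was higher by 0.37 (limma adjusted p = 0.0263), with overlap, and was not called without C10 brains 1, 2 or 3 or B6 brains 1, 5 or 6 (limma adjusted p from 0.0513 to 0.0615).

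Nuclear genes of the respiratory chain and ATP synthase gave 4 calls of 54 measured (7.41%), all lower, and the median of the list was -0.08. Cox7a2l was by far the largest. The ATP synthase genes Atp5g2 (-0.68) and Atp5mpl (-0.45) and the complex I assembly gene Ndufaf2 (-0.48, limma adjusted p = 0.0019) were lower by less. None of the 8 mitochondrially encoded genes was called, and 1 was without A/J brain 4 or C10 brain 4. Of 34 genes of mitochondrial translation 4 were called (11.8%, beside 10.4% of all genes). The ribosomal protein genes Mrps12 (-0.89), Mrpl27 (-0.51) and Mrpl42 (-0.45) were lower and the elongation factor gene Gfm2 (0.42) higher.

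Of 27 measured genes of lipid metabolism 2 were called (7.41%). Lpin2, for a phosphatidate phosphatase, was higher by 0.52 (limma adjusted p = 0.00766). The count was 4 without B6 brain 1.

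Genes of the cytosolic ribosome gave 8 calls of 72 measured (11.1%; 1 higher, 7 lower), with a median of -0.03. Rpl29 (above), Rps4l (-1.76), Rpl21 (-1.08), Rps3a1 (-0.49), Rps2 (-0.39), Rps14 (-0.28) and Rps27a (-0.25) were lower. Rpl21 was bright in both lines, at 5267, 8469 and 10250 in C10 brains and 13926, 17074 and 18577 in B6 brains, without overlap, and its second tested probe was also called lower (-0.64, limma adjusted p = 0.000129). Rps9 was higher by its brightest probe (0.55, limma adjusted p = 0.000363) and lower by its other probe (-0.84, limma adjusted p = 8.06e-06), so no direction is given for that gene. Ribosomal protein genes have many near-identical processed copies, and their assignment is uncertain. The count fell to 4 or 5 without B6 brains 3, 4, 5 or 6 or C10 brains 2 or 3. Among translation factors 2 of 34 were called (5.88%), the cap-binding gene Eif4e2 (-0.56) and the eIF2 alpha kinase gene Eif2ak1 (-0.40), both lower, and 1 remained called without B6 brains 3 or 6 or C10 brains 3 or 4.

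Ubiquitin-system genes, the class that Rnf41 belongs to, gave 9 calls of 117 measured (7.69%; 2 higher, 7 lower) with a median of 0.01. Among them, Trim11 was lower (-1.64), with C10 signals of 75.9, 116.8 and 145.8 and B6 signals of 392.1, 517.4 and 656.9. The deubiquitinase gene Usp36 (-0.65), the F-box genes Fbxo34 (-0.60), Fbxl19 (-0.58) and Fbxw7 (-0.49) and the NEDD8-conjugating enzyme gene Ube2m (-0.40) were lower too. Rnf170, for a ubiquitin ligase of the endoplasmic reticulum, was higher by 0.82, and Klhl25, for an adaptor of a cullin ligase, by 0.80. Of 23 proteasome genes 2 were called (8.70%, beside 10.4% of all genes). They were Psmd8 and the catalytic subunit gene Psmb5 (-0.69, limma adjusted p = 0.000148), both lower.

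At the glutamate synapse 4 of 20 measured genes were called (20%, beside 10.4% of all genes), 1 higher and 3 lower. Dlg4, which encodes the postsynaptic scaffold PSD-95, had signals of 263.9, 300.2 and 490.8 in C10 brains and 529.1, 590.3 and 997.1 in B6 brains (log2 difference -0.79, SE 0.15, limma adjusted p = 0.000423), without overlap. Slc17a7, for the vesicular glutamate transporter VGLUT1, was dim, at 109.4, 143.2 and 164.9 in C10 brains and 174.6, 296.6 and 417.8 in B6 brains (-0.76, limma adjusted p = 0.0124), and was not called without C10 brain 3 and B6 brain 4 together (0.067). The metabotropic receptor gene Grm5 was lower (-0.78, limma adjusted p = 0.00334), with overlap through B6 brain 1, whose signal of 1159 lay among the C10 brains. The AMPA receptor gene Gria1 was higher by 0.42 (limma adjusted p = 0.00507), and its other tested probe was not called (0.10, limma adjusted p = 0.806).

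Calls in 4 other lists of neuronal signalling genes were 16.7%, 6.67%, 7.41% and 13% of their members, beside 10.4% of all genes. At GABA and glycine synapses 1 of 6 measured was called, and none without C10 brain 1. In the list of monoamine, acetylcholine, neuropeptide and stress signalling 1 of 15 was called (6.67%), Crhbp, for the binding protein of corticotropin-releasing hormone (-0.62, limma adjusted p = 0.0037). Crhbp signals were 122.3, 194.3 and 199.8 in C10 brains and 184.9, 306 and 473 in B6 brains, with a small overlap. The list's count was 3 without B6 brain 1 or C10 brain 5 and 2 without B6 brain 4. Of 27 voltage-gated and related channel genes, the calcium channel subunit gene Cacna2d2 was lower (-0.51, limma adjusted p = 0.00658) and the calcium-activated potassium channel gene Kcnn2 higher (0.32, limma adjusted p = 0.0275), both with overlap, and 1 was called without B6 brains 3 or 5. Synaptic vesicle genes gave 3 calls of 23 (13%), all lower, namely the vesicle glycoprotein gene Sv2a (-0.59, limma adjusted p = 0.000177), the complexin gene Cplx2 (-0.38) and the endophilin gene Sh3gl2 (-0.38). Sv2a was bright, at 3585, 4615 and 5413 in C10 brains and 5781, 6864 and 8358 in B6 brains, without overlap. The count of vesicle genes was 1 without C10 brain 3 and B6 brain 4 together.

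Membrane trafficking genes gave 8 calls of 85 (9.41%; 3 higher, 5 lower). Asap2 and Arl5a were described above, and the SNARE gene Sec22c (-0.77), the exocyst gene Exoc8 (-0.52) and the coatomer gene Copa (-0.33) were lower. Trappc12, for a subunit of the TRAPP tethering complex, was higher by 0.96, with 223.3, 280.6 and 302.7 in C10 brains against 78, 103.1 and 119.9 in B6 brains. The GTPase gene Rab26 (0.69) and the sorting nexin gene Snx30 (0.54) were higher as well.

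Genes of actin and small GTPase regulation gave 7 calls of 63 (11.1%; 3 higher, 4 lower). Pak1, for a kinase that acts below Rac, had 358.4, 426.4 and 512.2 in C10 brains and 1002, 1216 and 1375 in B6 brains (-1.34, limma adjusted p = 6.06e-10). The actin-severing gene Cfl1 (-0.91) and the Arp2/3 subunit gene Arpc3 (-0.87) were lower as well, and none of the 3 genes overlapped between the lines. Cap1, for an actin-recycling protein, was higher by 0.96, with 1576, 1892 and 2110 in C10 brains and 738.3, 888.1 and 1191 in B6 brains. Dmtn, for the actin-bundling protein dematin (0.72), and Arhgap21, for a GTPase-activating protein (0.43), were higher too. Of 48 microtubule and motor genes 4 were called (8.33%), the kinesin genes Kif3b (-1.17) and Klc1 (-0.80) and the dynein light chain gene Dynll2 (-0.41) lower and the tubulin ligase gene Ttll4 (0.36) higher. That count was 2 without B6 brain 3 or C10 brain 4 and 7 without C10 brain 5.

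Cell adhesion genes gave 8 calls of 58 (13.8%; 3 higher, 5 lower). Cntn2, for the axonal adhesion protein contactin 2, was higher by 0.84, with 3572, 5143 and 6690 in C10 brains and 2476, 2561 and 3399 in B6 brains, without overlap, but its other tested probe was not called (0.23, limma adjusted p = 0.25). Pcdha8, of the protocadherin alpha cluster with its shared exons, was detected in 4 of 6 C10 brains and 0 of 6 B6 brains, and no fold is given for it. Ncam1 (0.35) was higher, and Emb (above), the integrin gene Itga6 (-0.71), Igsf11 (-0.43), Igsf21 (-0.37) and Ncam2 (-0.33) were lower. The count was 4 or 5 without B6 brains 3, 4, 5 or 6 or C10 brain 3, and 3 without B6 brain 4 and C10 brain 3 together. Of 26 axon guidance genes 2 were called (7.69%, beside 10.4% of all genes). Rgmb, for a repulsive guidance molecule and BMP co-receptor (-0.89), was lower and the Slit receptor gene Robo2 (0.46) higher. In this list 1 was called without B6 brains 3 or 4 or C10 brain 3.

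Signalling and growth genes were called in both directions. Of 9 Wnt pathway genes 2 were called (22.2%, beside 10.4% of all genes). Lrp6 and the secreted antagonist gene Sfrp1 (0.85, limma adjusted p = 1.58e-06) were both higher. Sfrp1 was at 668.8, 865.9 and 937.9 in C10 brains and 359.4, 435.4 and 520.8 in B6 brains. In the list of kinase pathway genes 7 of 66 were called (10.6%, beside 10.4% of all genes), with Braf (0.47) and Prkd3 (0.40) higher. Map4k5, the calcium-dependent kinase gene Camkk2 (-0.71) and the phosphatase regulatory subunit gene Ppp1r13b (-0.55) were lower. So was another such subunit gene, Ppp1r14c (undetected in all 6 C10 brains, at least 1.2-fold). In this list 4 were called without C10 brain 3 and B6 brain 4 together. Of 6 genes of ErbB and Rnf41 signalling 2 were called (33.3%, beside 10.4% of all genes). The kinase gene Tbk1 (0.34) was higher and the receptor inhibitor gene Lrig1 (-0.30) lower. Neither was called without B6 brains 3, 4 or 6 or C10 brains 1, 2 or 4.

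In the nucleus, zinc finger genes, the largest list measured, gave 20 calls of 132 (15.2%, beside 10.4% of all genes). By their brightest probes 8 were higher and 12 lower, and the list's median was 0.07. Zcchc3, Zfp871 and Zfp446 were among those lower and Zf12, Zfp775, Zbtb46, Zfp24 and Zfp983 among those higher. Zcchc3 and Zfp446 passed the detection filter without any C10 brain. Zfp467 is left without a direction because its probes were called in opposite directions (0.64 and -0.65). Developmental transcription factor genes gave 6 calls of 56 (10.7%), with Klf4 (0.53) higher and Sox11 (-0.56), the neuronal gene Mef2c (-0.49), Foxk2 (-0.39) and Foxo1 (-0.31) lower. That count was 3 without B6 brain 4 or C10 brain 3. Klf4 was also the 1 called gene of 5 immediate early genes (20%, beside 10.4% of all genes). Chromatin genes gave 5 calls of 59 (8.47%). The helicase gene Chd8 (0.68, limma adjusted p = 2.55e-05) and the histone methyltransferase gene Ehmt1 (0.71) were higher, each linked to neurodevelopmental disorders in humans. Ing4 (0.43) was higher by its brightest probe only (other probe -0.18, limma adjusted p = 0.391). Cbx3 (-0.55) and Hdac1-ps (-0.39) were lower. Hdac1-ps is a pseudogene by its symbol, so the assignment of its signal is uncertain. The count of chromatin genes was 9 without B6 brain 1. Splicing and RNA-binding genes gave 5 calls of 75 (6.67%), all of 0.62 or less in size, and 2 or 3 without B6 brains 3 or 4 or C10 brains 3 or 4. Cell cycle genes gave 3 calls of 24 (12.5%), Plk1 and the ribonucleotide reductase gene Rrm2 (-0.47) lower and Rpa3 higher, 1 without B6 brains 2, 4 or 6 and 5 without C10 brain 1.

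Solute carriers gave 11 calls of 68 (16.2%; 5 higher, 6 lower). Apart from Slc7a14 and Slc17a7, all were of 0.54 or less in size, such as the zinc transporter gene Slc39a9 (-0.46) and the bicarbonate transporter gene Slc4a7 (-0.43). The count was 5 or 6 without B6 brains 3 or 4 or C10 brains 2 or 6 and 4 without B6 brain 4 and C10 brain 3 together. Protein folding genes gave 3 calls of 40 (7.5%), Hspa12a (-1.22, limma adjusted p = 1.33e-06) and Dnajc27 (-0.33) lower and Dnajc17 (0.33) higher, and 1 without B6 brains 3 or 4 or C10 brain 4. Of the markers of other cells, Csf1r, the microglial receptor gene, was higher by 0.56 (limma adjusted p = 0.0112), at 287.6, 328.6 and 568.5 in C10 brains and 105.8, 233.2 and 269.4 in B6 brains, while C1qa and C1qb were not called. The collagen gene Col1a2 was undetected in C10 brain and at 113.5, 224.5 and 415.1 in B6 brain, while Col1a1, Col3a1 and Dcn of the same fibroblast list were not called. In whole tissue, fewer cells of a type and less RNA per cell cannot be told apart.

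**Figure D3:**
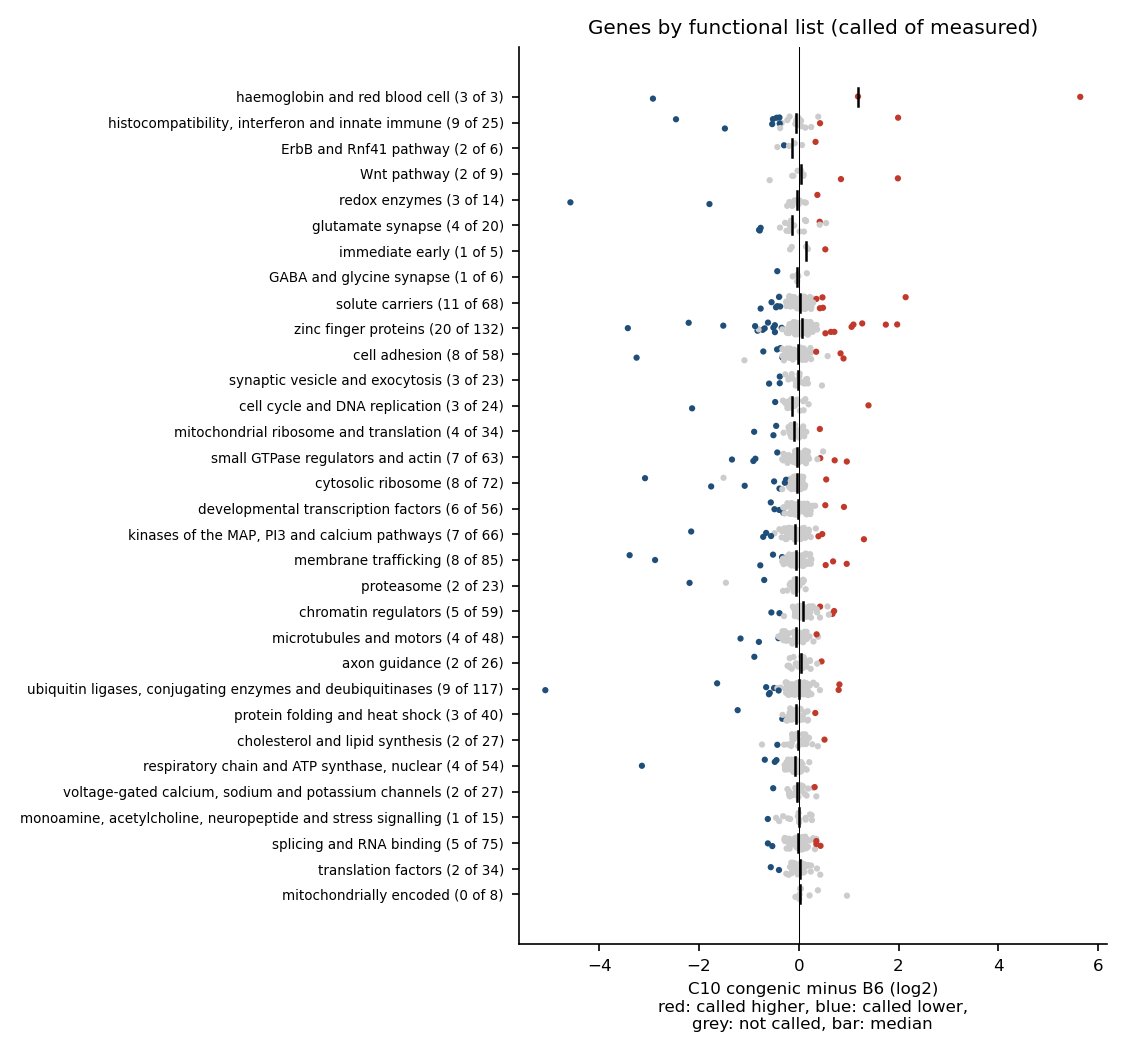
Each point is a measured gene of a functional list, with its C10 congenic minus B6 difference in log2 on the x axis, red where called higher, blue where called lower and grey where not called, and a black bar at the list's median. The lists are ordered by the share of called genes, given as called of measured beside each name, and the medians lie between -0.14 and 0.15 in all but the red blood cell list of 3 genes (1.19).

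Called genes lay on every autosome and on the X chromosome. The share of tested genes called was highest on chromosome 14 (24 of 134, 17.9%), chromosome 17 (30 of 195, 15.4%), chromosome 12 (21 of 142, 14.8%) and chromosome 13 (23 of 159, 14.5%), beside 10.4% of all. On chromosome 13, 21 of the 23 were lower in the congenic line. Apart from the Y chromosome (0 of 3) and the mitochondrial genome (0 of 8), the share was lowest on the X chromosome (6 of 132, 4.55%), chromosome 18 (8 of 132, 6.06%) and chromosome 10 (11 of 174, 6.32%). Shares were not tested against each other, since neighbouring genes are not independent.

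**Figure D4:**
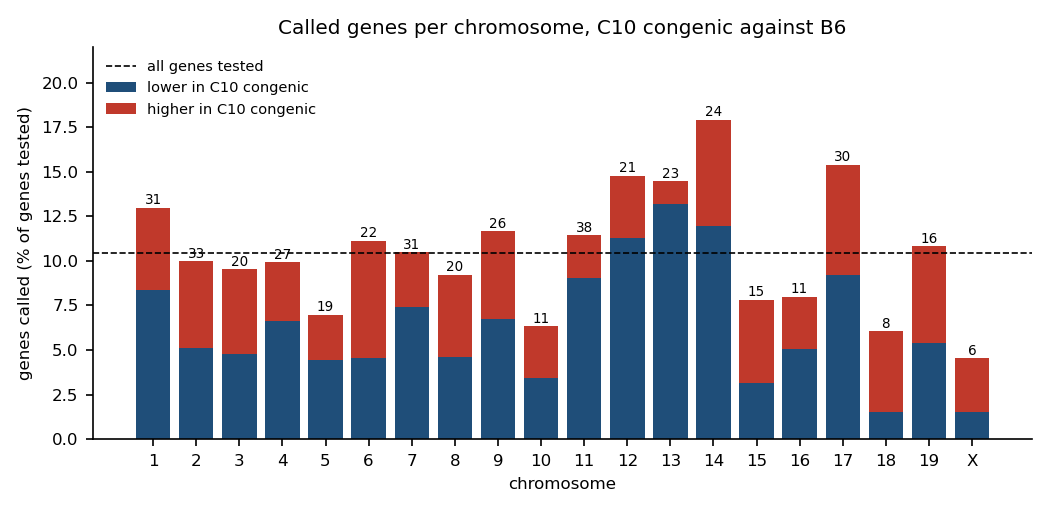
Bars give the percent of tested genes called on each chromosome, split into genes lower (blue) and higher (red) in the C10 congenic line, with the number called above each bar and the share over all tested genes (10.4%) as a dashed line. Chromosome 10 with 11 called genes, chromosome 18 with 8 and the X chromosome with 6 stand lowest, and chromosome 14 with 24 stands highest.

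Some called genes were neighbours among the tested genes, picked here after their values were seen. A run of 6 on chromosome 11 comprised H2aw (above), Trim11 (-1.64), Iba57 (-0.42), Zkscan17 (-0.62), 4933439C10Rik (-0.72) and Mprip (0.63). A run of 5 on chromosome 17 lay in the histocompatibility region, with Lst1 (1.15), H2-D1 (above), H2-Q2 (-0.39), H2-Q5 (0.43) and Vars2 (0.49). A run of 4 on chromosome 19 comprised Trub1 (-0.56), Atrnl1 (above), the GDNF receptor gene Gfra1 (-0.77) and Hspa12a (-1.22), all lower. On chromosome 7, Hddc3 (2.40) stood between Rccd1 (0.44) and the mannosidase gene Man2a2 (0.64), all higher. A second Rccd1 probe was also called higher (0.31, limma adjusted p = 0.0308), and a second Man2a2 probe was not called (0.22, limma adjusted p = 0.398).

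Chromosome 10, the chromosome named in the line, held no called gene with a difference of 1 or more. Its 11 called genes were 5 higher, namely Ikbip (0.73), the lysozyme gene Lyz2 (0.60), Izumo4 (0.44), Tbk1 (0.34) and Tmem198b (0.28), and 6 lower, namely Ppp1r14c (at least 1.2-fold), the adherens junction gene Vezt (-0.48), Mrpl42 (-0.45), the proteoglycan gene Spock2 (-0.44), Zfp365 (-0.34) and the tRNA exporter gene Xpot (-0.31). Mrpl42 and Lyz2 were called in all 28 alternative fits. Mrpl42 had 1078, 1399 and 1647 in C10 brains and 1700, 1811 and 2231 in B6 brains, without overlap. The call was lost for Tmem198b in 14 of 18 fits without 1 brain, for Tbk1 in 13, for Vezt in 6, for Spock2 and Xpot in 4 each, for Zfp365 in 3 and for Izumo4 in 1. Ppp1r14c, counted among the 11, was undetected in every C10 brain, so no C10 brain counted towards its detection filter. It met the filter in only 12 of those 18 fits and was called in each, which is a description and no test. The number of called genes on the chromosome was 5 without B6 brain 3, 5 without C10 brain 3 and 6 without C10 brain 4.

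Called genes on chromosome 10 were spread over its length, with the first tested gene, Ppp1r14c, and the last but 1, Tmem198b, among them. Ppp1r14c was undetected in every C10 brain, and the Tmem198b call was lost in 14 of 18 fits without 1 brain. The longest stretch of tested genes without a call held 46, from Mthfd1l to Dnajb12, followed by 33 from Ank3 to Mknk2, 23 from Oaz1 to Apaf1 and 22 from BC048403 to Rps26. Cirbp (-1.21) and Naca (-1.08) had the largest fitted differences there but were not called (limma adjusted p = 0.327 and 0.481) and belong to the 14 genes with a signal under -40 in C10 brain 3 alone.

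**Figure D5:**
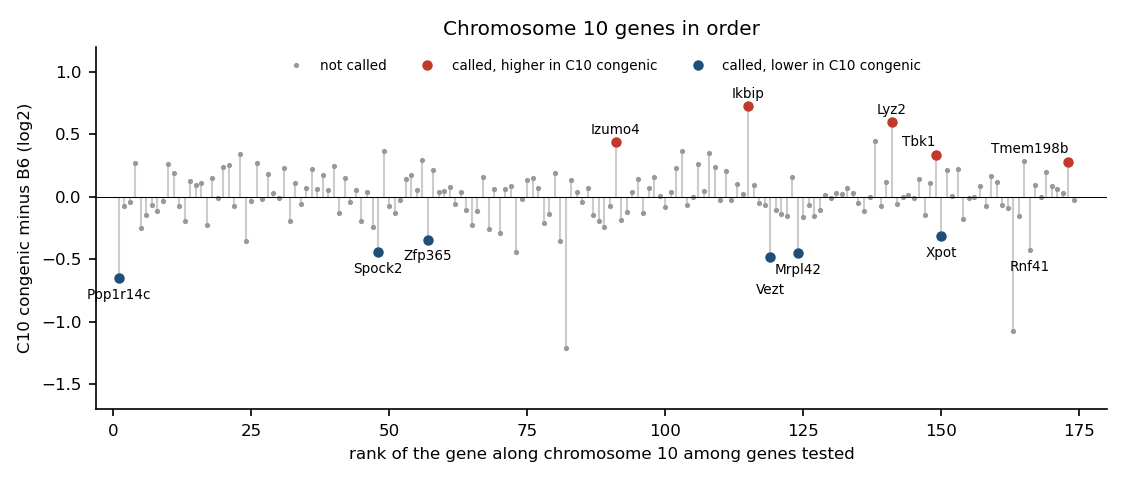
Each point is a tested gene of chromosome 10, placed by its rank along the chromosome among 174 tested genes, with the C10 congenic minus B6 difference in log2 on the y axis. Red points were called higher, blue points lower, and the uncalled points beyond -1 are Cirbp and Naca, whose signal was under -40 in C10 brain 3.

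Rnf41, which lies in the stretch of 22 uncalled genes, had signals of 113, 187.4 and 223.1 in C10 brains and 187.8, 264.4 and 341.4 in B6 brains, with overlap. Its difference of -0.43 (SE 0.14) did not pass the threshold across all probes (limma adjusted p = 0.0541), and the exact two-sided permutation test over all splits of the 12 brains gave p = 0.0152. Without C10 brains 5 or 6, B6 brain 2, or A/J brains 2 or 6 it passed, at limma adjusted p of 0.0302 to 0.0451. Without C10 brains 1 or 2 or B6 brains 4 or 6 it lay further from the threshold (limma adjusted p = 0.135, 0.108, 0.115 and 0.126). The gene's other probe was undetected in all 18 arrays, so the value rests on 1 probe.

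By limma, 8 genes were called in the C10 line against B6 and against A/J, and their 2 values share the C10 brains. Against A/J, 35 of 4147 tested genes were called (0.844%), beside 432 against B6 (10.4%). Cfl1 was lower than in B6 (-0.91) and than in A/J (-0.70), with C10 signals of 341.6, 410.5 and 479.6, B6 signals of 737.5, 853.6 and 904 and an A/J median of 784.2. The transcriptional co-regulator gene Zmiz1 (-0.81 against B6 and -0.53 against A/J), Eif4e2 (-0.56 and -0.45), the synaptic adhesion gene Lrfn1 (-0.54 and -0.53) and Habp4 (-0.52 and -0.47) were also lower than in each. Dmtn (0.72 and 0.57) and the folate-related gene Mthfsd (0.36 and 0.59) were higher than in each. The Mthfsd call against B6 was lost in 5 of 18 fits without 1 brain. None of the 7 genes named here lies on chromosome 10, and the second tested probe of Eif4e2 did not differ from B6 by the test (-0.05, limma adjusted p = 0.796).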

How the data were processed

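Total RNA of 18 newborn brains was labelled with biotin and hybridised to Illumina Sentrix Mouse-6 arrays, 1 brain per array, and the signals were made with BeadStudio, per the submitters' processing notes (version and settings not given in the sources used here). The deposited values are an intensity per probe (AVG_Signal) and a detection score, per the file headers. The deposited detection score is a fraction from 0 to 1 that rises with the signal, and 1 minus it was read as a detection p. Quartiles of the deposited intensity were nearly equal on all arrays (medians 26.3 to 26.9), so scaling before deposit is likely, by a method no source states. Of 46116 probes, 560 controls were left out. Probe identifiers whose digits matched NCBI Gene IDs in the RefSeq gene table of GRCm38.p6 (80.8% and 84.4% of numbers in the identifier forms used, against 34.5% to 46.8% of the same numbers shifted) named 9832 probes, and 35724 stayed unnamed.

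Probes with detection p under 0.01 on at least 6 of the 18 arrays were kept (15883). Signals plus 75 were taken to log2, quantile normalized and fitted with limma 3.58.1 in R 4.3.3, with 1 coefficient per line, and called at a Benjamini-Hochberg adjusted p under 0.05 over all kept probes (two-sided). The script was tested on simulated data. Summaries used Python 3.11.15, numpy 2.4.6, pandas 2.3.3, scipy 1.17.1 and matplotlib 3.10.9. The number of arrays limits the precision, and chip and scan date were not used here.

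By rule the text names the 20 largest called differences in each direction, up to 5 called genes per list by adjusted p, called genes of chromosome 10, called markers, Rnf41, genes detected in 1 line only and genes called against both other lines. Further members of lists, runs of neighbours, probes lost in 1 brain and genes that bound a stretch were named after their values were seen. The comparison and the lists were chosen with earlier results of these data known. Some genes that this rule names are not reported here, and all counts include them except those of single reported genes. Alternatives changed the arrays fitted, normalization, shift, detection filter, prior, probe of a gene and replicate block, and left out each array. The replicate numbers did not pair the brains (correlations of same-numbered deviations from -0.09 to 0.16).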

Additional observations from a re-analysis of the deposited data

Results flagged for a closer look

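In each line, each gene named by the rule and reported was checked for a brain whose signal lay far from the other 5 of its line, measured by its gap to the nearest of them over the whole range. Of 290 groups of 6 looked at, 19 held such a brain, and chance flags about 1 in 20 groups.

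In B6 brain 1 the signal was 777.9 for Asap2 (others 1340.5 to 1664.5), 3149 for Cacna2d2 (others 2187 to 2467), 4286 for Cbx3 (others 2472 to 3028), 105.8 for Csf1r (others 223.9 to 269.4), 1159 for Grm5 (others 2125 to 2663) and 1096 for Sf3a1 (others 1459 to 1616). In B6 brain 4 it was 2231 for Mrpl42 (others 1700 to 1881), 6602 for Psmd8 (others 4719 to 5399), 243 for Uap1l1 (others 135.4 to 173), 156.4 for Xlr3a (others 17.9 to 54.3) and 557.5 for Zfp871 (others 815.7 to 965.6). In B6 brain 3 it was 10.7 for Zf12, against -28.2 to -13.8, all undetected.

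In C10 brain 3 the signal was -54.3 for Ccl27a (others 272.2 to 447.5), 110.9 for Foxo1 (others 152.1 to 169.6), 1634 for Gria1 (others 1335 to 1396) and 497.7 for Kcnn2 (others 354.6 to 404.2). In C10 brain 4 it was 1974 for Glrx2 (others 2714 to 2958) and 970.1 for Slc4a7 (others 619.9 to 682.9). In C10 brain 5 it was 568.5 for Csf1r (others 287.6 to 362.8).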

How the results depend on the processing

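Called genes numbered 432, and 329 (without B6 brain 3) to 448 (without C10 brain 5) when each brain was left out. With only the 12 arrays of both lines 350 were called, without a filter on dim probes 345, with signals floored at 16 395, and with replicate number as a block 462, of which 411 were shared. Called genes on chromosome 10 numbered 11, and 6 with only the 12 arrays, 6 without both brains that stand apart and 5 without a filter. They ranged from 5 to 12 when each brain was left out. The Rnf41 difference of -0.43 passed the threshold where probes had to be detected in all 6 arrays of either line (limma adjusted p = 0.05 after rounding, below it before) and with the replicate block (-0.43, limma adjusted p = 0.007), and ranged from -0.50 to -0.35 when each brain was left out. Rnf41 did not pass without a filter on dim probes (limma adjusted p = 0.155) or without both brains that stand apart (0.110). With the block, the calls of Tbk1 (limma adjusted p = 0.0657), Tmem198b (0.0554), Rbm4b (0.0514), Tgfb3 (0.0547) and Ttll4 (0.0688) were lost. Rps9 turned to -0.14 as the mean of its probes. Of 144 other named genes, 110 were called in every fit that measured them. The 110 include genes undetected in every C10 brain that passed the filter through the B6 brains alone. Those genes had to differ in any fit that measured them, so the count does not measure their stability. The causes of the other changes were not tested. Detection limits what can be said of dim probes, for which a difference in level may be missed, and most called probes have no gene name here.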
